A study of Mus musculus with 14 samples.

Results

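Sesn1, Sesn2, Rrm2b, Xpc, Ddb2, Polk, Phlda3, Gls2, Ddit4 and Dcxr are 10 genes that have been described as targets of the transcription factor p53 in stress signalling, DNA repair and metabolism. They were taken by name from the 21887 protein-coding genes of RefSeq's gene table for the assembly GRCm38.p6 (mm10), and all 10 were matched. For each gene, the regions of 7 ChIP-seq peak lists that overlapped the gene or the 10 kb on either side of it were collected. The cells were E14 mouse embryonic stem cells, with stable lines selected by antibiotics, kept on gelatin in medium with serum, LIF and 2 kinase inhibitors. H3K27ac, the acetylated histone found at promoters and enhancers in use, and H3K9me3, the methylated histone typical of silent chromatin, were profiled in cells given 1 µM doxorubicin for 6 h and in cells given DMSO vehicle for 6 h, in each case followed by 6 h without drug. The remaining groups were a p53 ChIP made with an HA antibody on tagged p53, the same antibody on cells without a tag, and input chromatin of cells given doxorubicin. The labels do not say whether the cells of the HA ChIPs had received doxorubicin, or how the tag was introduced. Each of the 7 lists was called on the 2 pooled libraries of its group, so no value below has a replicate check, no test was run, and the 95% intervals cover counting error only.

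p53 is stabilised after DNA damage and binds a response element made of a pair of 10-base motifs, from which it activates transcription of nearby genes. Beside its targets in cell cycle arrest and apoptosis, a set of targets damps growth signalling, supplies and repairs DNA, and adjusts metabolism. Doxorubicin poisons topoisomerase II and breaks DNA, which activates p53.

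The lists hold the pileup of fragments at each summit, which was divided here by the fragments of the list and is given as fragments per 1000000 (FPM). Fragments kept after removal of duplicates numbered 14402634 to 20647895 in the 4 histone lists, 45238471 for p53, 49588950 for the untagged ChIP and 16583331 for the input. As a check of the cell type, all 8 embryonic stem cell markers examined had an H3K27ac region in both treatments, at 1.53 to 11.7 FPM in doxorubicin and 1.55 to 11.8 in vehicle, and 7 of the 8 reached 3 FPM in each treatment. No marker of fibroblasts, endoderm, neural cells or trophoblast did so. The highest of them had 2.76 FPM in doxorubicin and 2.37 in vehicle.

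p53 regions were found at 4 of the 10 genes, Sesn2, Ddit4, Phlda3 and Polk, with 6 regions in all. The other 6 genes, Sesn1, Rrm2b, Xpc, Ddb2, Gls2 and Dcxr, had no p53 region in the gene or the 10 kb around it. Over all protein-coding genes 25% had a p53 region in the same window. Within 25 kb 7 of the 10 genes had one, Sesn1, Xpc and Dcxr being added, against 35.7% over all genes. The 10 genes ranged from 2.1 to 97.9 kb in length with a median of 21.6 kb, against a median of 17.2 kb over all genes, and longer genes offer a wider window. The untagged list and the input list held no region at any of the 10 genes. These lists are shorter, with 3979 and 2236 regions against 11282 for p53. The share of all genes with such a region is not given, so their absence here is not read as a trait of these genes.

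**Figure D1:**
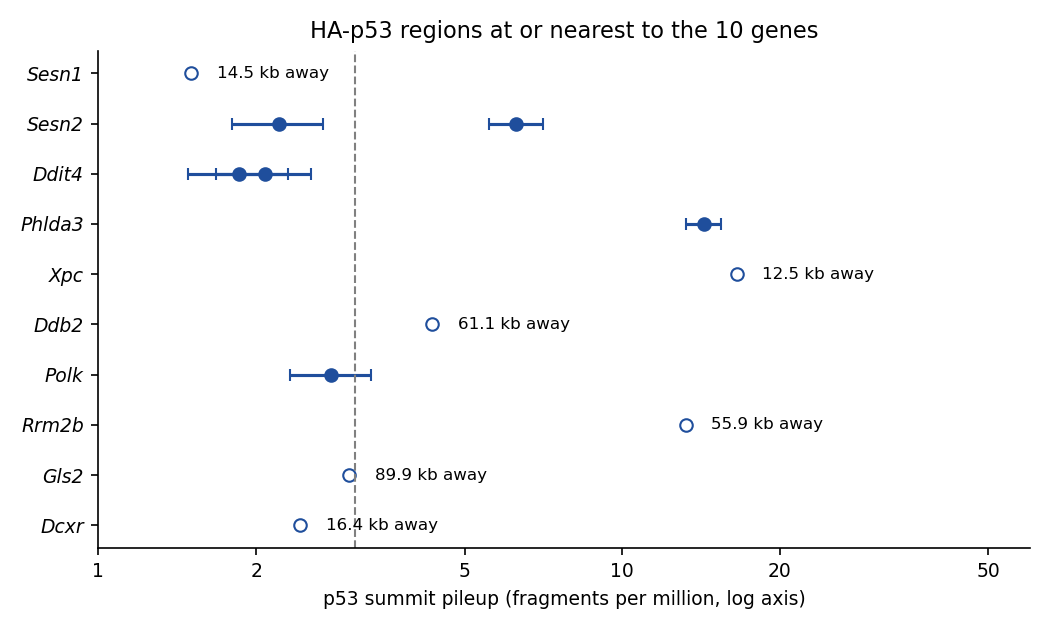
Summit pileup of HA-p53 regions in FPM (log axis) for the 10 genes. Filled points are regions in the gene or the 10 kb around it, with 95% Poisson intervals, open points the nearest region of a gene that has none in that window, with its distance from the gene, and the dashed line the median of all 11282 p53 regions, 3.09. Among the filled points, Phlda3 at 14.3 and the main Sesn2 region at 6.28 lie above the median and the second Sesn2 region, Ddit4 and Polk below it, and among the open points Xpc at 16.5, Rrm2b at 13.2 and Ddb2 at 4.33 lie above it.

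Phlda3 encodes a small pleckstrin-homology protein that competes with the kinase Akt for membrane lipids and so restrains Akt. Its p53 region, on chromosome 1 from 135759585 to 135760213, had the highest pileup of the 10 genes, 14.3 FPM (13.2 to 15.5), with the authors' fold enrichment of 21.7 over background and a −log10 q of 226. It ranked 1211 among the 11282 p53 regions. The summit, at 135759878, lay 6207 bp upstream of the annotated start of Phlda3, and no other gene lay in the window.

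Sesn2 encodes sestrin 2, a leucine-sensing inhibitor of mTORC1 that also limits oxidative stress. Its main p53 region, on chromosome 4 from 132509545 to 132510010, reached 6.28 FPM (5.57 to 7.05) with a fold enrichment of 16.7, rank 2833. The summit lay inside the gene, 708 bp downstream of the start. A weaker region from 132515484 to 132515742 had 2.21 FPM (1.80 to 2.69) with a fold enrichment of 4.71 and lay 5165 bp upstream of Sesn2. The tRNA gene n-TAagc8 was nearer to that summit, at 387 bp.

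Polk encodes the translesion DNA polymerase kappa, which copies past bulky base adducts. Its region, on chromosome 13 from 96542099 to 96542469, had 2.79 FPM (2.32 to 3.32) and a fold enrichment of 7.86, rank 6222. The summit lay inside the gene, 283 bp downstream of the outer of its 2 annotated starts.

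Ddit4 encodes REDD1, an inhibitor of mTORC1 that acts through the TSC complex and is induced by hypoxia and other stresses as well as by p53. Weak p53 regions lay on either side of it on chromosome 10. The upstream region, from 59956365 to 59956642, had 2.08 FPM (1.68 to 2.54) with its summit 4731 bp before the start. The other, from 59948404 to 59948693, had 1.86 (1.48 to 2.30) with its summit 3223 bp after the start and 1128 bp beyond the far end of the gene. Their fold enrichments were 5.07 and 5.59, and their intervals overlap.

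The 4 genes therefore stood in the order Phlda3, Sesn2, Polk and Ddit4 by their highest p53 pileup. The interval of Polk overlapped that of the upstream Ddit4 region, so counting error does not separate those neighbours in the order.

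For the genes without a region in the window, the nearest p53 summit lay 12.5 kb outside Xpc, 14.5 kb outside Sesn1, 16.4 kb outside Dcxr, 55.9 kb outside Rrm2b, 61.1 kb outside Ddb2 and 89.9 kb outside Gls2. The region near Xpc, on chromosome 6 from 91476407 to 91477173, had 16.5 FPM and a fold enrichment of 38.5, a higher pileup than any region inside the windows. It lay within the neighbouring gene Tmem43. The nearest region of Sesn1, at 1.50 FPM, lay within Cep57l1, and that of Dcxr, at 2.43, within Aspscr1.

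Start sites and the sequence around them came from RefSeq promoter windows of GRCm38.p6 (250 bases before to 50 after a start), in which 6 of the 10 genes had entries, with 8 windows. Rrm2b, Xpc, Ddb2 and Gls2 were not matched. All 6 p53 regions of the group fell outside these windows, so the sequence under the p53 summits is not shown. The stretches below lie directly upstream of the starts of the 3 genes whose H3K27ac was past the fold of 1.5 used below. They are given 5′ to 3′ on the strand of the gene in lower case, with capitals for matches to a pair of CNNG cores with 6 bases between them, the skeleton of the p53 motif, which reads the same on both strands. That of Polk (chr13:96542580-96542708, minus strand) reaches upstream as far as the annotated end of the neighbouring gene Cert1. That of Phlda3 is chr1:135765835-135766084 on the plus strand and that of Dcxr chr11:120727285-120727534 on the minus strand.
Polk: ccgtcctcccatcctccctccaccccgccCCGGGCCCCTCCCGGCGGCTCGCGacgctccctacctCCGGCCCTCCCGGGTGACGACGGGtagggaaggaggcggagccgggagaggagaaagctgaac
Phlda3: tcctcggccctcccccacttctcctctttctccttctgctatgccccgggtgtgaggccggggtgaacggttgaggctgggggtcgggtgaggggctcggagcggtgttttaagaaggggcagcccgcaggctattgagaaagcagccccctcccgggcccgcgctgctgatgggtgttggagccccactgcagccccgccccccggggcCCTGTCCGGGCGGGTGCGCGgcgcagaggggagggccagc
Dcxr: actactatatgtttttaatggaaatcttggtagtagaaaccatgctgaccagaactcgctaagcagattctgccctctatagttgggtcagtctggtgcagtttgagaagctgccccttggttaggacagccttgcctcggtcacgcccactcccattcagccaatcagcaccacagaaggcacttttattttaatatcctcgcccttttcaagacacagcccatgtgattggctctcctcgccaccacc

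The Polk stretch held 5 such matches, some overlapping, and 14 CG dinucleotides in 129 bases, the Phlda3 stretch 2 matches and 18 CG dinucleotides in 250 bases, and the Dcxr stretch no match and 5 CG dinucleotides in 250 bases. The loose skeleton was common, with a match in 70.2% of all 32851 promoter windows and in 7 of the 8 windows of these genes. The window of Dcxr was among the 7, since its matches lay after the start, at bases 16 to 45, outside the stretch shown. The window without a match was that of the inner start of Polk. The full p53 consensus, a pair of consensus decamers at most 13 bases apart on either strand, was found in 0.0731% of all windows and in 0 of the 8. A single consensus decamer was found in 8.36% of all windows and in 2 of the 8, those of the inner starts of Sesn1 and Polk. A stretch of 30 bases before the inner start of Sesn1, chr10:41887256-41887285 on the plus strand with the decamer in capitals, is shown because Sesn1 had no p53 region in its window.
Sesn1 inner start: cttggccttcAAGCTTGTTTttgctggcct

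H3K27ac was listed at all 10 genes in both treatments, where 77.4% of protein-coding genes had a region in doxorubicin and 71.9% in vehicle. The highest summit of each gene ran from 1.58 to 9.69 FPM in doxorubicin, with a median of 3.99, and from 1.70 to 8.23 in vehicle, with a median of 3.10. The medians over all genes with a region were 1.76 in doxorubicin and 1.70 in vehicle. Phlda3 and Sesn2 had the highest pileups and Sesn1 the lowest in doxorubicin.

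At Polk, Dcxr and Phlda3 the highest summit had at least 1.5 times more H3K27ac in doxorubicin than in vehicle, and none of the 10 genes had 1.5 times less. Of the 15335 protein-coding genes with the mark in both treatments, 24.5% were past this fold upward and 10.1% downward, so 3 of 10 upward is near the share over all genes. The median ratio was 1.25 over the 10 genes and 1.07 over all genes, an overall shift of 0.10 on the log2 scale, and ratios relative to that shift are given below where it matters. Intervals of the ratio lay wholly above 1 for these 3 genes and included 1 for the other 7.

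**Figure D2:**
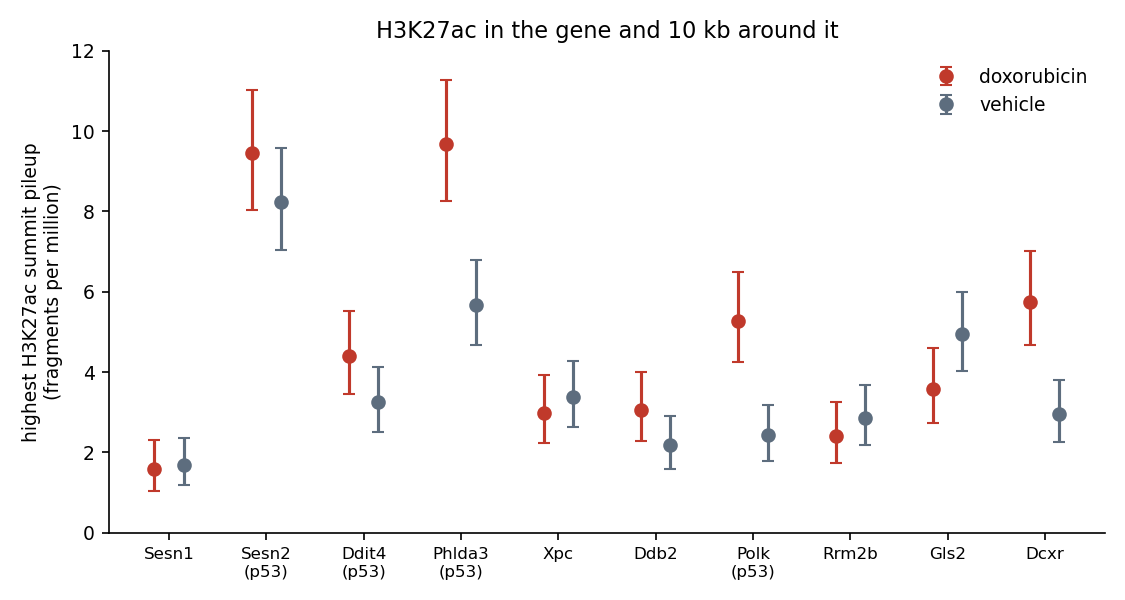
Highest H3K27ac summit pileup in the gene and the 10 kb around it, in FPM, for doxorubicin (red, left of each pair) and vehicle (grey, right), with 95% Poisson intervals of the pooled fragments. Genes with a p53 region are marked. The pairs are set apart most at Phlda3, Polk and Dcxr, with 9.69, 5.28 and 5.75 in doxorubicin against 5.67, 2.42 and 2.95 in vehicle.

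At Polk the highest summit had 90 fragments, or 5.28 FPM, in doxorubicin and 50 fragments, or 2.42 FPM, in vehicle, a ratio of 2.18 (1.53 to 3.15). Relative to the median of all genes the ratio was 2.03, and 7.33% of genes had a higher one. The summit lay in a region from 96541825 to 96543876 in doxorubicin and from 96541822 to 96543783 in vehicle. This region covered the outer start of Polk, the adjacent end of Cert1 and the p53 summit, which lay 52 bp from the acetylation summit in doxorubicin and 62 bp in vehicle.

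At Phlda3 the highest summit, just inside the gene start, had 165 fragments (9.69 FPM) in doxorubicin and 117 (5.67 FPM) in vehicle, a ratio of 1.71 (1.34 to 2.19). The region around it spanned 7200 bp in doxorubicin and 3401 bp in vehicle, where further regions of 506 and 1540 bp lay within the doxorubicin span. At the upstream p53 region a separate H3K27ac region had 112 fragments (6.57 FPM) in doxorubicin and 71 (3.44 FPM) in vehicle, a ratio of 1.91 (1.41 to 2.61). Acetylation was thus higher in doxorubicin at the bound site and at the start, and over the whole window the mark covered 16.3 kb in doxorubicin and 10.8 kb in vehicle.

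At Sesn2 the region over the start and the main p53 summit was strong in both treatments, with 161 fragments (9.45 FPM) in doxorubicin and 170 (8.23 FPM) in vehicle. The ratio of 1.15 (0.919 to 1.43) was 1.07 relative to the median of all genes, so the 2 treatments were not separated by more than counting error. The H3K27ac region over the upstream p53 region had 3.93 FPM in doxorubicin and 3.00 in vehicle, a ratio of 1.31 (0.913 to 1.88), but its highest summit lay 548 bp from the p53 summit in doxorubicin and 1745 bp from it in vehicle. Within 500 bp of the p53 summit the mark had 42 fragments (2.47 FPM) in doxorubicin and 31 (1.50 FPM) in vehicle, a ratio of 1.64 (1.01 to 2.70). That interval includes 1.06, the median ratio over all H3K27ac regions listed in both treatments, so counting error does not separate it from the general shift.

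At Ddit4 the start had 75 fragments (4.40 FPM) in doxorubicin and 67 (3.24 FPM) in vehicle, with a ratio of 1.36 (0.963 to 1.92) that includes 1. At the p53 region beyond the far end of the gene, the mark had 30 fragments (1.76 FPM) in doxorubicin and 17 (0.823 FPM) in vehicle, a ratio of 2.14 (1.14 to 4.13). At the upstream p53 region it was listed in doxorubicin only, with 14 fragments (0.822 FPM). The lowest pileup of any listed vehicle summit was 9 fragments (0.436 FPM), so a weak vehicle signal at that place would not have been listed.

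**Figure D3:**
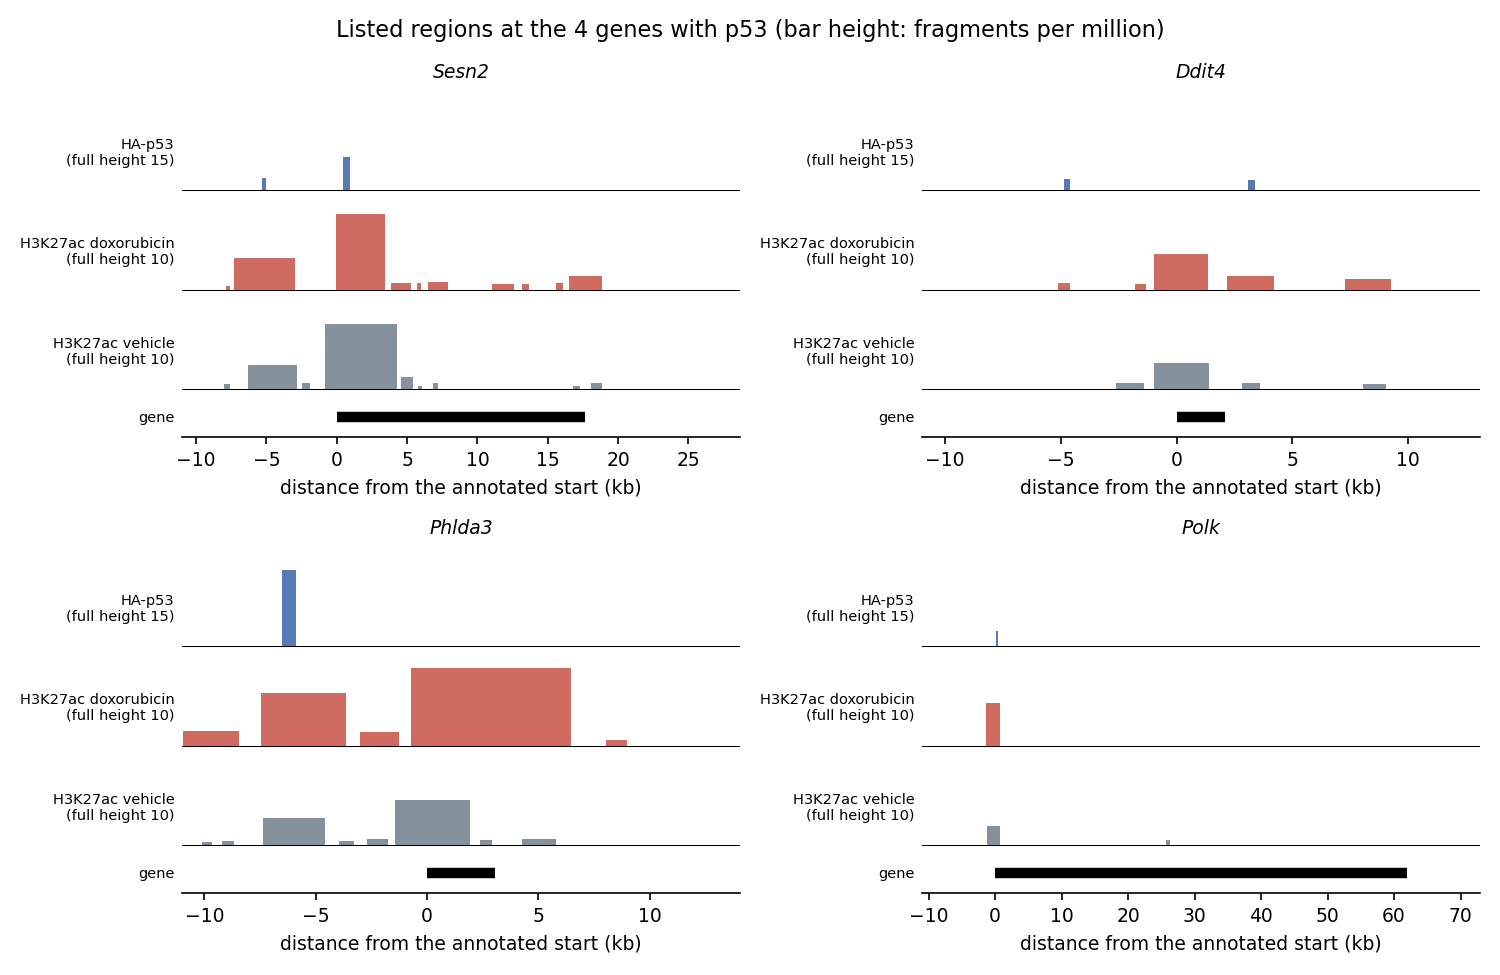
Listed regions of HA-p53 (blue), H3K27ac in doxorubicin (red) and H3K27ac in vehicle (grey) at Sesn2, Ddit4, Phlda3 and Polk, by distance in kb from the annotated start, with transcription to the right and the gene as a black bar. Bar height is the pileup of the highest summit in FPM. The p53 region lies beside the start at Sesn2 and Polk, upstream of Phlda3 and on both sides of Ddit4, and the red bars at the Phlda3 and Polk sites are higher than the grey ones.

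By its strongest p53 region, 3 of the 4 genes had H3K27ac there in both treatments and 1, Ddit4, in doxorubicin only. The intervals of the 2 Ddit4 regions overlap, so which of them is the strongest is not settled, and the other had the mark in both treatments. Counted by region, 5 of the 6 had the mark in both treatments and 1 in doxorubicin only. Over all p53 regions 42.3% had the mark in both treatments and 30% in doxorubicin only. These shares count regions, not the strongest region of each gene. Of the 5 p53 regions of these genes with the mark in both lists, 3 were at least 1.5 times higher in doxorubicin, those at Phlda3, Polk and the far side of Ddit4, against 74.5% over all p53 regions. With H3K27ac summits within 500 bp of the p53 summit, the upstream Sesn2 region was added and 4 of the 5 passed, against 76.1% over all p53 regions. The ratio of 1.15 at the main Sesn2 region lay below the median of all p53 regions, 1.99. H3K9me3 was not listed at any of the 6 p53 regions.

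The 4 genes with a p53 region had H3K27ac ratios from 1.15 to 2.18, all above 1, and the 6 without had ratios from 0.725 to 1.95, with 2 of the 6, Dcxr and Ddb2, above 1. The values of Ddb2 and Sesn1 set different places against each other, as described below. At matched places Sesn1 was lower in doxorubicin at its outer start and higher inside the gene, so its side of 1 depends on the place. The groups overlapped, and the contrast rests on the highest summit. Summed over the regions of the window, 5 of the 6 without p53 were also above 1, all but Gls2, and the median of the summed ratio over all genes was 1.34. By the highest summit, over all protein-coding genes the median ratio was 1.33 for genes with a p53 region (quartiles 0.958 and 1.85). It was 0.998 for those without (quartiles 0.784 and 1.31). Ratios above 1 were thus usual in the first set and about as frequent as ratios below 1 in the second, so the split of these 10 genes was not particular to them.

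**Figure D4:**
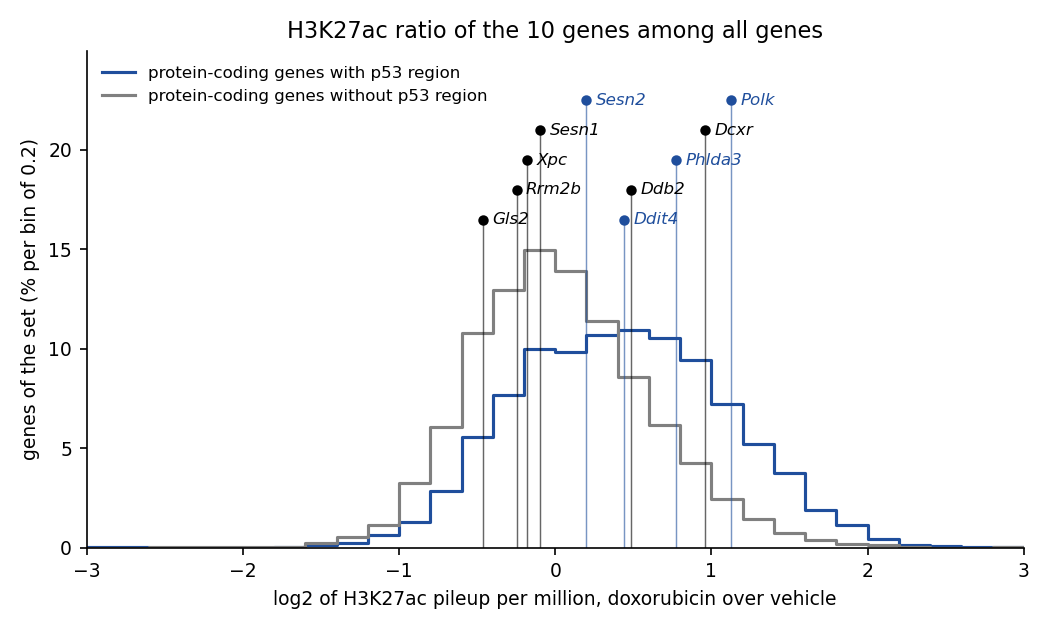
Distribution of the log2 ratio of the highest H3K27ac pileup, doxorubicin over vehicle, for protein-coding genes with a p53 region (blue line) and without (grey line), as % of each set per bin of 0.2. The points mark the 10 genes, with blue for those with a p53 region. Polk and Dcxr lie farthest to the right, with ratios of 2.18 and 1.95, and Gls2 farthest to the left, with 0.725.

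Dcxr encodes dicarbonyl and L-xylulose reductase, an enzyme of carbonyl detoxification and of the uronate cycle. It had no p53 region in its window, and its start had 98 fragments (5.75 FPM) in doxorubicin and 61 (2.95 FPM) in vehicle, a ratio of 1.95 (1.40 to 2.73). Of all genes 11.1% had a higher ratio. The summits lay 205 bp after the start in doxorubicin and 215 bp after it in vehicle, and the region spanned 1724 bp in doxorubicin and 887 bp in vehicle. At its nearest p53 region, 16.4 kb outside the gene within Aspscr1, H3K27ac had 3.58 FPM in doxorubicin and 1.84 in vehicle.

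Gls2 encodes the liver-type glutaminase, which turns glutamine into glutamate. Its highest summit, 7.7 kb outside the gene, had 61 fragments (3.58 FPM) in doxorubicin and 102 (4.94 FPM) in vehicle, a ratio of 0.725 (0.519 to 1.01). That direction depends on the window, since within 5 kb the ratio was 1.77, where the highest doxorubicin summit lay beside Spryd4 and the highest vehicle summit at the opposite end of Gls2. Beside Spryd4 the mark had 51 fragments (2.99 FPM) in doxorubicin and 31 (1.50 FPM) in vehicle. At the opposite end it had 21 fragments (1.23 FPM) in doxorubicin and 35 (1.70 FPM) in vehicle.

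The nucleotide excision repair genes showed no difference beyond counting error at the end of each with the mark in both treatments. Xpc and Ddb2 encode proteins that recognise damaged bases in the global branch of that pathway, and in human cells DDB2 is a p53 target while the mouse gene has been described as lacking that response. The end shared by Xpc and Lsm3 had 51 fragments (2.99 FPM) in doxorubicin and 70 (3.39 FPM) in vehicle, a ratio of 0.883 (0.603 to 1.28). The end of Ddb2 beside A330069E16Rik had 35 fragments (2.05 FPM) in doxorubicin and 45 (2.18 FPM) in vehicle, a ratio of 0.943 (0.588 to 1.50). A weak region 759 bp outside the other end of Ddb2 was listed in doxorubicin only, with 9 fragments (0.528 FPM). The highest doxorubicin summit in the Ddb2 window lay 9001 bp outside the gene beside Acp2, with 52 fragments (3.05 FPM) in doxorubicin and 39 (1.89 FPM) in vehicle. The ratio of 1.40 for the window sets that summit against the vehicle summit at the end of Ddb2, so it compares different places.

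Xpc had more H3K27ac regions in doxorubicin, 8 covering 8.73 kb, than in vehicle, 4 covering 2.72 kb, in lists of 112259 regions in doxorubicin and 82177 in vehicle. The 6 regions listed in doxorubicin only were all weak, at most 0.763 FPM, and 3 of them lay on the side of Tmem43, where the strong p53 region just beyond the window was found. At that p53 region H3K27ac had 7.92 FPM in doxorubicin and 3.63 in vehicle. Within 25 kb the ratio of Xpc was therefore 2.18, in place of 0.883, and summed over the regions of the 10 kb window it was 1.66.

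Rrm2b encodes p53R2, a small subunit of ribonucleotide reductase that supplies nucleotides for repair and mitochondrial DNA. Its end beside Gm49085 had 41 fragments (2.41 FPM) in doxorubicin and 59 (2.86 FPM) in vehicle, a ratio of 0.842 (0.551 to 1.28). Summed over its regions the ratio was 1.11. A region inside the gene had 21 fragments (1.23 FPM) in doxorubicin and 11 (0.533 FPM) in vehicle.

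Sesn1 encodes sestrin 1, a paralog of sestrin 2 that also restrains mTORC1, and had the lowest highest summit of H3K27ac among the 10 genes in both treatments. Summed over its regions the ratio was 1.31, in place of 0.935, close to the 1.34 of all genes. Its highest summit had 27 fragments (1.58 FPM) in doxorubicin, 20001 bp inside the gene, and 35 fragments (1.70 FPM) in vehicle, at the outer start beside Cep57l1. The doxorubicin list had 21 fragments (1.23 FPM) at that start, a ratio of 0.727 (0.402 to 1.28). At the inside position the vehicle list had 18 fragments (0.872 FPM). The ratio of 0.935 sets the inside summit in doxorubicin against the start in vehicle, so it compares different places.

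Across the 10 windows there were 59 H3K27ac regions covering 78.1 kb in doxorubicin and 53 covering 55.7 kb in vehicle. Of the doxorubicin regions 21 had no counterpart in vehicle, and of the vehicle regions 7 had none in doxorubicin. Over the whole lists 46.5% of the 112259 doxorubicin regions and 28.8% of the 82177 vehicle regions had none, so an excess in doxorubicin was general. The one-sided regions were weak, up to 0.998 FPM in doxorubicin and 0.823 in vehicle.

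H3K9me3 was listed at 5 of the 10 genes in doxorubicin and at 3 in vehicle, where 47.6% of protein-coding genes had a region in doxorubicin and 42.1% in vehicle. Rrm2b, Xpc, Gls2, Ddit4 and Dcxr had none in either treatment. The regions in the Sesn1 window made up 20.8 of 23.6 kb covered in doxorubicin and 23.5 of 24.4 kb in vehicle. Inside Sesn1 itself they covered 8.58 kb in doxorubicin and 8.06 kb in vehicle, and the rest lay upstream within Cep57l1, partly beyond the 10 kb window. A region 7079 bp long inside the gene had 89 fragments (6.18 FPM) in doxorubicin, and the same region, 7057 bp long, had 73 fragments (4.56 FPM) in vehicle. The ratio of 1.35 (0.982 to 1.87) was close to the median of 1.26 over all genes, and relative to that median it was 1.08. Upstream, within Cep57l1, the mark was listed as 3 regions with a highest summit of 3.33 FPM in doxorubicin and as 1 region of 15484 bp with 3.25 FPM in vehicle. Deeper in the gene, 42191 bp from its nearer end, another region had 1.53 FPM in doxorubicin and 1.38 in vehicle.

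**Figure D5:**
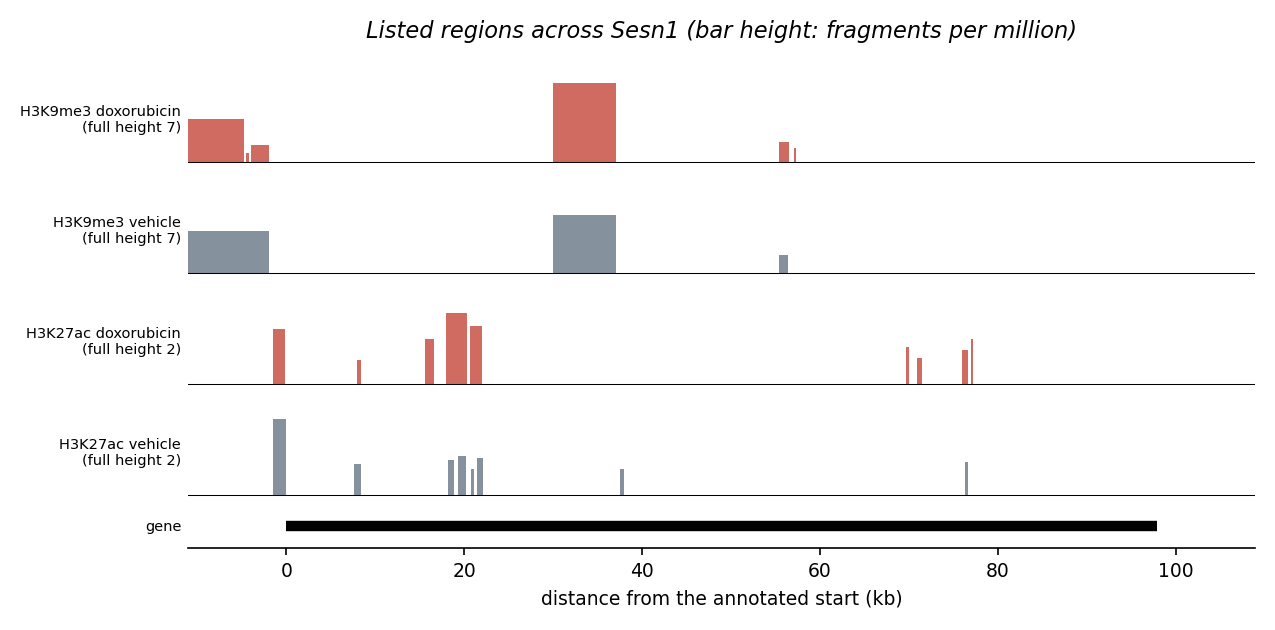
Listed H3K9me3 and H3K27ac regions across Sesn1 in doxorubicin (red) and vehicle (grey), by distance in kb from the outer annotated start, with the gene as a black bar and bar height the highest pileup in FPM. The H3K9me3 block inside the gene reaches 6.18 in doxorubicin and 4.56 in vehicle, and the H3K27ac regions lie outside it.

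At the other genes H3K9me3 was weak, with at most 16 fragments in doxorubicin and 14 in vehicle. The lowest values that the lists hold were 7 fragments in doxorubicin and 8 in vehicle. Sesn2 had 1 region and Phlda3 had 2 in doxorubicin only, each with 10 fragments (0.694 FPM). Ddb2 had 13 fragments (0.903 FPM) in doxorubicin and 10 (0.625 FPM) in vehicle, at 3795 and 3718 bp outside the gene. Polk had 16 fragments (1.11 FPM) in doxorubicin and 14 (0.875 FPM) in vehicle, at 2800 and 2348 bp outside the gene.

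Other genes described as p53 targets in stress, metabolism and repair were set beside the 10. Of 25 such genes 13 had a p53 region in the window, against 25% of all protein-coding genes. Of the 24 with H3K27ac in both treatments 7 were at least 1.5 times higher and 2 at least 1.5 times lower in doxorubicin. The shares over all genes were 24.5% and 10.1%, so the count of higher genes is near that share. The median ratio was 1.28, against 1.07 over all genes. High p53 pileups were found at Zmat3 with 23.6 FPM, Tsc2, which encodes a subunit of the TSC complex that REDD1 acts through, with 23.3, Trp53inp1 with 23.3 and Ulk1, which encodes an autophagy kinase, with 17.8. The H3K27ac ratios of Zmat3, Trp53inp1 and Ulk1 were 1.23, 1.47 and 0.737, none of them past the fold of 1.5. H3K27ac ratios of 2 or more were found at Ercc5, an excision repair nuclease, with 3.15, Lpin1 with 2.80, Gadd45a with 2.46, Tsc2 with 2.36 and Sco2 with 2.00. At Pcna, the sliding clamp of replication, the highest summit had 2.35 FPM in doxorubicin and 5.47 in vehicle, a ratio of 0.429. Regions were taken by window, so some of these may belong to a neighbouring gene, as for the p53 region of Trp53inp1, whose summit lay within A630034I12Rik.

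Among 16 targets in cell cycle arrest, apoptosis and feedback, 14 had a p53 region, against 25% of all protein-coding genes. The median highest pileup was 4.53 FPM for the 4 genes here with p53 and 12.8 for those 14. Cdkn1a, with 30.9 FPM, Bbc3, with 23.5, Gtse1, with 20.4, Mdm2, with 17.8, and Mdm4, with 16.9, lay above Phlda3. Of the 14 with H3K27ac in both treatments 8 were at least 1.5 times higher in doxorubicin, against 24.5% of all genes. The median ratio was 1.54, with ratios of 4.76 at Pmaip1, 2.56 at Trp73, 2.55 at Plk2 and 2.28 at Apaf1. Apaf1 had no p53 region in its window. These lists were chosen with results of the series known, and no test of their difference from the 10 genes was run.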

How the data were processed

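The 14 libraries form 7 groups of 2. The titles give both p53 libraries 1 replicate number, so theirs only name the libraries. The submitters' processing notes name Bowtie2 2.2.6 and MACS2 2.2.5. Per the file headers, the libraries of a group were pooled, 1 fragment was kept per position and the q cutoff was 0.05. Histone and input lists had no control and a genome-wide background, the untagged list used the input as control without a local background, while the p53 list used the input with one. The deposited signal is the summit pileup, which MACS had scaled to the input depth in both HA lists. The deposited fold enrichment is a ratio to the background, and significance is the deposited −log10 of the q value.

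Summits of an interval were joined into 1 region with the values of its highest summit. Pileups were divided by the fragments kept in the list, or for the HA lists by those of the input they had been scaled to, and multiplied by 1000000 (FPM), which gives FPM of the ChIP in every list. Pileup intervals are exact Poisson and ratio intervals exact binomial (Clopper-Pearson) at 95%. A ratio counted as past the fold at 1.5. Background shares use protein-coding genes and the same window. Overlap counts were checked against bedtools on simulated regions. Named genes were the 10 genes, in each other list the 5 with the highest p53 pileup and those with an H3K27ac ratio past 2, and genes nearer to a p53 summit; some genes that this rule takes are not reported here. The members and lists were chosen with earlier results of these data known. Alternatives covered window, q, fold, scaling and summing. Software was numpy 2.4.6, pandas 2.3.3, scipy 1.17.1 and matplotlib 3.10.9 under Python 3.11.15.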

Additional observations from a re-analysis of the deposited data

How the results depend on the processing

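No paired analysis was possible because the deposited lists pool both libraries of a group, which also prevented leaving out a library. The counts of genes with p53 and of genes with higher or lower H3K27ac stayed within 1.5 times of the reported ones in a 5 kb window and when regions needed a −log10 q of 5, and the H3K27ac counts also with scaling by the median ratio of shared regions. The 5 kb window lost the p53 region of Phlda3, the strongest of the 10 genes, which left 3 genes with p53 and 2 with H3K27ac there in both treatments. With a 25 kb window, 7 genes had a p53 region, against 35.7% of all genes, and as many had one without an untagged or input region. By its strongest such region 5 genes had H3K27ac there in both treatments and 2 in doxorubicin only, and 5 genes had H3K9me3 in vehicle, against 60.3% of all genes. Summing all regions of a window gave 5 genes with higher H3K27ac in doxorubicin, Polk, Dcxr, Phlda3, Xpc and Ddit4, against 41.3% of all genes, and turned the ratio above 1 for Sesn1 (1.31), Rrm2b (1.11) and Xpc (1.66), where the median of all genes was 1.34. A fold of 2 gave 1 gene. Requiring a −log10 q of 5 left H3K9me3 at 3 genes in doxorubicin, and it was at 2 genes in doxorubicin and 1 in vehicle when at least 1 FPM was required. Counting regions within 1 kb of a gene end, an alternative added after seeing the data, gave 4 genes with higher H3K27ac, Gls2 being the added one. Where no share over all genes stands beside a count here, the count describes the 10 genes only. That holds for the 5 kb window, the −log10 q of 5, the fold of 2, the 1 FPM limit and the gene ends. It also holds, within 25 kb, for H3K27ac at the strongest p53 regions and for p53 regions without an untagged or input region. Pooled lists and pileups under 20 fragments limit what the weak regions can show.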

Other observations

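Paralogs and partners of the 10 genes were examined in the same way. Of 18 such genes 8 had a p53 region in the window, against 25% of all protein-coding genes. Of the 17 with H3K27ac in both treatments 7 were at least 1.5 times higher and 1 at least 1.5 times lower in doxorubicin. The shares over all genes were 24.5% and 10.1%. Cul4a, which encodes the cullin of the ubiquitin ligase that DDB2 guides to damaged DNA, had 62.2 FPM of p53 inside the gene, more than any of the 10 genes, and H3K27ac of 5.99 FPM in doxorubicin and 2.47 in vehicle. Rrm1, the large subunit of ribonucleotide reductase and partner of p53R2, had 26.4 FPM of p53 at 9.7 kb outside the gene, where Olfr543 was nearer, and H3K27ac of 5.52 in doxorubicin and 2.42 in vehicle. Rev1, a scaffold of translesion synthesis that binds polymerase kappa, had 7.12 FPM of p53 inside the gene and H3K27ac of 3.76 in doxorubicin and 1.65 in vehicle. Ddit4l, the paralog of Ddit4, had 5.17 FPM of p53 inside the gene and H3K27ac of 4.40 in doxorubicin and 1.74 in vehicle, while Ddit4 itself had 2.08 FPM of p53. Rad23b, the partner of XPC, had 5.35 FPM of p53, nearest to Gm42290. Sesn3, the remaining sestrin, had no p53 region and H3K27ac of 0.646 in doxorubicin and 0.726 in vehicle. Sesn3 was singled out as a paralog after its values were seen.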
